A study of Homo sapiens with 12 samples.

Results

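HCT116 cells, an established human colon cancer line, that had been held in NH4Cl and then given TGF-β were compared with HCT116 cells held in NH4Cl alone. The comparison takes 6 of the 12 RNA sequencing libraries of the study, 3 from each of these groups, paired by the replicate number in the labels. It covers the genes with a mean of at least 1 FPKM (fragments per kilobase of gene, scaled to the size of the library) over the 12 libraries, which were 12341 of 25733 genes. The other 6 libraries came from untreated cells and from cells given TGF-β without NH4Cl. NH4Cl is a source of ammonia, and the comparison asks which genes respond to TGF-β when ammonia is present. By the methods of the study, NH4Cl was at 10 mM for 24 h in all, and TGF-β was at 200 pM for the last 1 h; the labels give neither doses nor times. All 4 groups are the same line with no genetic change named in the labels, and whether replicates were separate cultures is not stated, so every p-value here speaks only of the spread between these libraries.

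TGF-β binds a pair of receptors, TGFBR2 and TGFBR1, which phosphorylate SMAD2 and SMAD3; these join SMAD4 and enter the nucleus. BMPs use related receptors and SMAD1 and SMAD5, and the ID genes are classic targets of that arm that TGF-β can also reach. In epithelial cells both arms switch on their own inhibitors, SMAD7 among them, within the hour. HCT116 is commonly described as carrying inactivating TGFBR2 mutations, which limits it as a model of receptor signalling; FPKM values say nothing about the protein.

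Reads on genes ranged from 14807630 to 18191998 over the 12 libraries. The NH4Cl libraries held 14956458, 15880031 and 14931020 reads, and the NH4Cl plus TGF-β libraries 15671088, 14807630 and 17620222, in the order of their replicate numbers, which is the order of all values below. Replicate 3 stood apart from replicates 1 and 2 in each of the 4 groups: the first principal component, 52.5% of the variance, separated it. Mitochondrial genes took 3.06%, 3.18% and 5.07% of the reads with NH4Cl and 3.16%, 2.46% and 4.69% with NH4Cl plus TGF-β. The differences of read counts between replicates 1 and 2, as chi-square per gene, were 1.71 with NH4Cl and 4.65 with NH4Cl plus TGF-β, against 2.19 in control and 1.94 with TGF-β alone; against replicate 3 they were 22.95 to 32.8 in the groups compared. The part of these differences in the results was not tested, and ID1 is given with and without each library.

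Most markers of colon epithelium were present in all 6 libraries. The 9 epithelial markers summed to 2286, 2311 and 2909 FPKM with NH4Cl and to 2498, 2379 and 3026 FPKM with NH4Cl plus TGF-β. The keratins KRT8, KRT18 and KRT19 made up most of the sum, and KRT20, a keratin of mature colon cells, lay at 0.066 to 0.37 FPKM. The 12 markers of fibroblasts, endothelium and blood cells summed to 4.76, 5.34 and 8.36 FPKM and to 4.58, 4.56 and 9.99 FPKM; 10 of them are in the deposited table, and PTPRC and CD68 are not. The most abundant of them was VWF, an endothelial clotting protein, at 2.47, 2.75 and 5.67 FPKM with NH4Cl and 2.43, 2.42 and 6.44 FPKM with NH4Cl plus TGF-β, high in replicate 3 of both groups. The collagen gene COL1A1 was at 1.61, 1.70 and 1.99 FPKM and at 1.43, 1.47 and 2.62 FPKM, and its groups overlap. The sums over other cell types were highest in replicate 3 whatever the treatment.

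Of 12341 genes, 1 rose past an adjusted p of 0.05 in limma, 0.00810% of the genes tested: ID1, which encodes an inhibitor of basic helix-loop-helix transcription factors. ID1 (ENSG00000125968, protein-coding, chromosome 20, 31605283 to 31606515, forward strand, GRCh38) was at 21.9, 17.1 and 38.1 FPKM with NH4Cl and at 32.2, 31.0 and 54.9 FPKM with NH4Cl plus TGF-β. It was higher in each of the 3 pairs, by 1.47-fold, 1.81-fold and 1.44-fold, while the groups overlap in level, since replicates 1 and 2 with TGF-β lie below replicate 3 without it. The means were 25.7 ± 10.96 and 39.4 ± 13.5 FPKM (SD, n = 3 each), and the values rest on 345 to 1150 reads. On the log2 scale of FPKM plus 1 the change was 0.62 (SE 0.0657, 95% interval 0.48 to 0.77, adjusted p = 0.0341 in limma with replicate number as a block).

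The size of the ID1 change moved little with the processing, from 0.56 to 0.68 over 22 alternatives, while its adjusted p ran from 0.000173 to 1.00 and was under the threshold in 6 of them. Leaving out any 1 of the 6 libraries compared ended the call: the adjusted p was 0.206, 0.188 and 0.0767 without NH4Cl replicate 1, 2 and 3, and 0.125, 0.217 and 0.281 without NH4Cl plus TGF-β replicate 1, 2 and 3. Of the libraries not compared, which lend only their spread, leaving out control replicate 1, 2 or 3 gave 0.0846, 0.108 and 0.0816, and TGF-β replicate 2 gave 0.0961. Without the replicate block the SE was 0.355 and the adjusted p 1.00 (unadjusted 0.107 in limma); replicate 3 was the highest in every group.

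**Figure D1:**
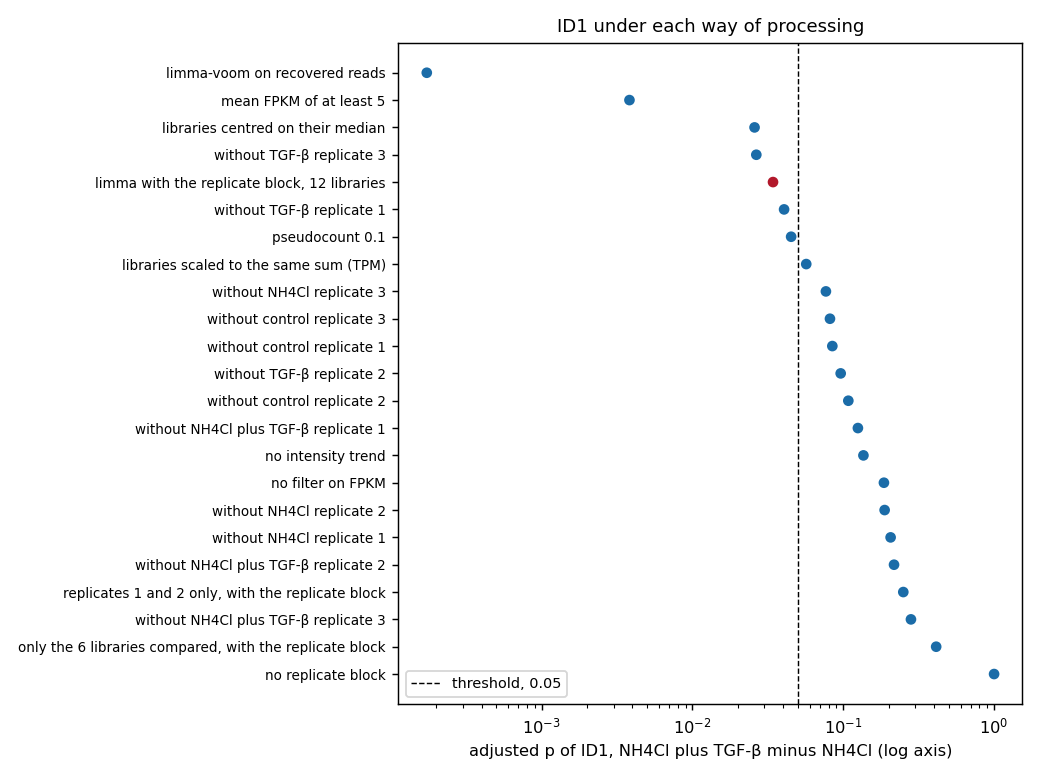
Adjusted p of ID1 (x axis, log scale) in the comparison of NH4Cl plus TGF-β with NH4Cl under each way of processing (y axis); the red point is limma with the replicate block on 12 libraries and the dashed line is the threshold of 0.05. The log2 fold change lies between 0.56 and 0.68 in all of them, and the adjusted p lies between 0.000173 and 1.00.

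The promoters of ID1, ID3 and SMAD7 are shown for the 250 bases before the start of the transcript, from RefSeq on GRCh38.p14. These genes of the BMP list met the unadjusted rule given below, and of them ID1 alone passed the adjusted threshold. BAMBI of that list also met the rule, and its promoter is not shown. The ID1 window is at chr20:31605039-31605288 on the forward strand. The ID3 window is at chr1:23559502-23559751 and the outermost of the SMAD7 windows at chr18:48950966-48951215, both on the reverse strand. Both lie inside the gene spans given below, so they precede the RefSeq start and not the outer end of the span. Capitals mark GTCT or its reverse complement AGAC, the letters of the box known for SMAD3 and SMAD4.
ID1: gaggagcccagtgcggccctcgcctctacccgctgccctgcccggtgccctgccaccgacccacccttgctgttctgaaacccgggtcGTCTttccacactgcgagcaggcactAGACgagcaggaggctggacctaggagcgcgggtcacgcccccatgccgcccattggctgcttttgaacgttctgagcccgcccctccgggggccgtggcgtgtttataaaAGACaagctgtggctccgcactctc
ID3: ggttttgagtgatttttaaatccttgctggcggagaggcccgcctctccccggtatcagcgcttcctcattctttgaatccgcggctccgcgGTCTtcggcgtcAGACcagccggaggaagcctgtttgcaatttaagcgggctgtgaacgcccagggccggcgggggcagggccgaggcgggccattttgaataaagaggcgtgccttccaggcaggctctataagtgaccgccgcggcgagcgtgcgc
SMAD7: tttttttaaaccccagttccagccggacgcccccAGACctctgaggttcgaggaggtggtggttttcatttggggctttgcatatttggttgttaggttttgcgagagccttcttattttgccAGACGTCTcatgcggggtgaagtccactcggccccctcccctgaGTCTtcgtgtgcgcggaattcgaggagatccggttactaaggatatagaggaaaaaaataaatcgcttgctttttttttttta
GTCT or AGAC occurs 3 times in the ID1 window, 2 times in ID3 and 4 times in this SMAD7 window, and neither strand of the 3 windows holds GGCGCC, a letter run of the BMP arm, or the E-boxes CAGCTG, bound by many helix-loop-helix factors, and CACCTG, which SNAI1 can bind. Over 35116 promoter windows of this length, either strand holds GTCT in 77.5%, with a median of 1 match. The share of windows that hold GGCGCC on either strand was 16.4%, the share with CAGCTG was 14.0% and the share with CACCTG was 17.5%. The other SMAD7 windows differ: the one at chr18:48949334-48949583 holds GTCT or AGAC 5 times, and the one at chr18:48942808-48943057 holds it 1 time and holds CACCTG. A match describes the letters alone, and the search did not extend beyond these windows.

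The same treatment without NH4Cl gave 1 gene past the threshold as well, 0.00810% of those tested, and it was again ID1. Those 6 libraries are not in the comparison above but enter the same fit. In them ID1 was at 26.1, 22.9 and 46.6 FPKM in control cells and at 45.4, 37.1 and 66.2 FPKM with TGF-β, a log2 fold change of 0.65 (0.50 to 0.79, adjusted p = 0.0248 in limma). This call rests on single libraries as well: leaving out control replicate 1, 2 or 3 gave an adjusted p of 0.296, 0.138 and 0.127, TGF-β replicate 1 or 2 gave 0.150 and 0.195, and, of the libraries with NH4Cl, NH4Cl replicate 1 gave 0.0773 and NH4Cl plus TGF-β replicate 1 or 3 gave 0.0510 and 0.0879. The size was 0.59 to 0.72 and the adjusted p 9.13e-06 to 1.00 over the alternatives, and with replicates 1 and 2 only the p was 0.112. The response of ID1 with NH4Cl minus that without it was −0.02 (−0.23 to 0.18), unadjusted p = 0.813 in limma. Differences in response inside that interval were not detectable with these libraries.

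Below the adjusted threshold, members of the lists are counted by an unadjusted rule: limma p under 0.05 and 1 direction in 3 of 3 pairs. With NH4Cl, 514 genes were higher by the rule, 4.16% of those tested, and 304 were lower, 2.46%; without NH4Cl the shares were 1.69% (209 genes) and 1.46% (180 genes). None of these other than ID1 passed the adjustment, where the second smallest p was 0.526 with NH4Cl and 0.171 without. The rule therefore describes, and a count near those shares says nothing of the list. The lists and their members were chosen with earlier results of these data known. A share far from that of all genes therefore describes as well, and is no test of the list.

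**Figure D2:**
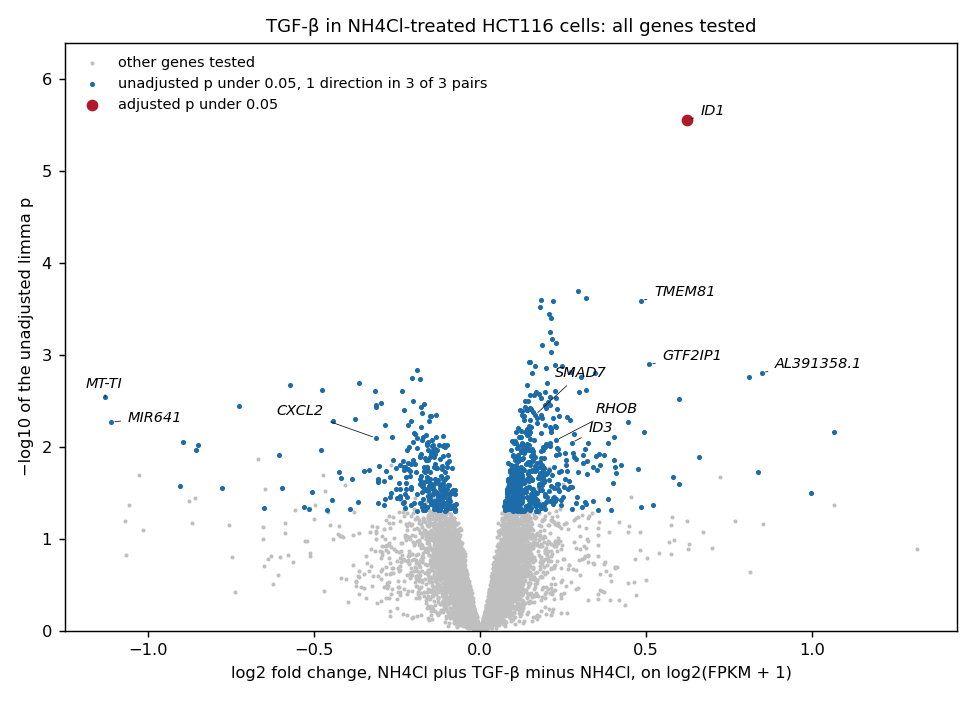
Log2 fold change of NH4Cl plus TGF-β over NH4Cl (x axis, on FPKM plus 1) against minus log10 of the unadjusted limma p (y axis) for 12341 genes; blue points meet the unadjusted rule and the red point passes the adjusted threshold. ID1 lies apart from the rest, and MT-TI, MIR641 and AL391358.1, far to the left and right, are genes of few reads.

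Among the TGF-β ligands and latency proteins 7 of 11 genes were tested, with 1 higher, 0 lower by the rule (limma with the block) and a median log2 fold change of 0.06, against 0.00042 over all genes. The gene was LTBP3 (ENSG00000168056, chromosome 11, 65538805 to 65558930), which holds latent TGF-β in the matrix, at 28.3, 28.8 and 34.0 FPKM with NH4Cl and 29.5, 30.7 and 40.0 FPKM with NH4Cl plus TGF-β, a difference of 0.13 (unadjusted p = 0.0293 in limma), or 0.0775 without NH4Cl replicate 3. Its groups overlap, and replicate 3 was the highest in each. TGFB1, the ligand itself, was at 52.4, 57.1 and 79.1 FPKM and at 55.1, 52.2 and 93.0 FPKM, lower in the pair of replicate 2 and higher in the other pairs (0.06, −0.08 to 0.20). LTBP4, a relative of LTBP3, differed by 0.10 (−0.08 to 0.28).

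Of the TGF-β and BMP receptors 9 of 13 were tested, 0 met the rule in either direction, and the median was −0.0047. TGFBR2, the receptor that binds the ligand, was at 7.45, 8.002 and 9.93 FPKM with NH4Cl and 8.04, 8.29 and 9.88 FPKM with NH4Cl plus TGF-β, so its message was present in all 6 libraries at a like level. TGFBR1, the signalling receptor, was at 12.6, 12.7 and 11.4 FPKM and at 11.6, 12.8 and 10.8 FPKM. The intervals of the difference were −0.05 to 0.14 for TGFBR2 and −0.20 to 0.08 for TGFBR1. The largest differences in the list were 0.11 for the co-receptor TGFBR3 and 0.10 for ACVR1, a receptor for BMPs and activin.

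Of the SMADs and their adaptors 6 of 8 were tested and 0 met the rule, with a median of −0.04. SMAD3, which carries the TGF-β signal to DNA, was at 13.3, 14.0 and 17.1 FPKM with NH4Cl and at 13.4, 13.1 and 18.2 FPKM with NH4Cl plus TGF-β, and the interval of its difference was −0.09 to 0.09. SPTBN1, a spectrin that serves as a SMAD adaptor, was at 20.7, 20.4 and 21.8 FPKM and at 17.1, 20.46 and 22.2 FPKM, with replicate 1 the low value after TGF-β (−0.08, −0.21 to 0.05). SMAD5, of the BMP arm, differed by −0.08 and ZFYVE9, an adaptor that brings SMADs to the receptor, by −0.11. SMAD4, the common partner, was not tested, since its deposited values lay between 0.12 and 0.22 FPKM in all 12 libraries; whether that low value comes from the counting is not known.

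Of the SMAD inhibitors and corepressors 10 of 12 were tested, with 2 higher, 0 lower by the rule (limma with the block) and a median of 0.03. SMAD7 (ENSG00000101665, chromosome 18, 48919853 to 48952052, reverse strand), which blocks the receptors, was at 6.08, 5.55 and 7.64 FPKM with NH4Cl and 6.65, 6.47 and 8.87 FPKM with NH4Cl plus TGF-β. It was higher in 3 of 3 pairs while the groups overlap, and the difference of 0.17 (SE 0.0452, unadjusted p = 0.00451) missed the adjusted threshold (0.660). Without NH4Cl SMAD7 differed by 0.25, and the interaction was −0.09 (unadjusted p = 0.194 in limma).

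BAMBI (ENSG00000095739, chromosome 10, 28677342 to 28682939, forward strand), a decoy receptor without a kinase, was the other. Its level was 56.9, 57.7 and 73.1 FPKM with NH4Cl and 61.3, 60.1 and 79.1 FPKM with NH4Cl plus TGF-β, higher in 3 of 3 pairs, a difference of 0.09 (unadjusted p = 0.0208, adjusted 0.673 in limma). Without NH4Cl it went the other way, from 68.3, 64.4 and 83.0 FPKM in control cells to 63.7, 62.7 and 76.1 FPKM with TGF-β, −0.09 with 3 of 3 pairs lower. The interaction was 0.18 (0.07 to 0.28, unadjusted p = 0.00375, adjusted 0.992 in limma), so a different response of BAMBI with NH4Cl did not pass the adjustment. SKIL, a corepressor of SMADs, was at 8.78, 8.86 and 9.62 FPKM and at 8.74, 9.60 and 11.2 FPKM, 0.10 (−0.03 to 0.24).

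**Figure D3:**
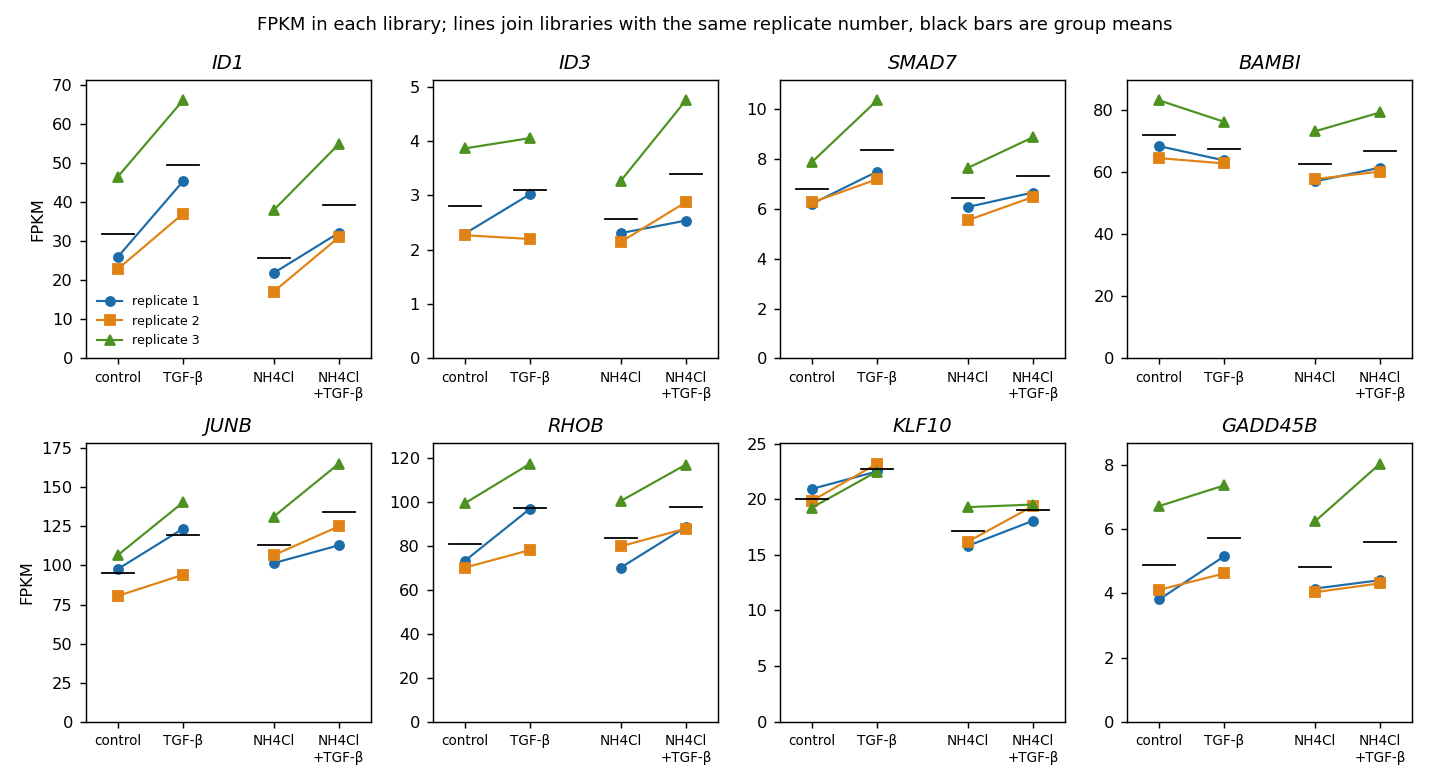
FPKM (y axis, from 0) of 8 genes in each library of the 4 groups (x axis); lines join libraries of the same replicate number and black bars are group means. ID1 is higher with TGF-β in all 6 pairs, while BAMBI is higher with it in the 3 pairs with NH4Cl and lower in the 3 pairs without.

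Of 15 BMP target and feedback genes 8 were tested, and 4 were higher by the rule, ID1, ID3, SMAD7 and BAMBI, with 0 lower (limma with the block). All 8 had a positive difference, against 6200 of all 12341 genes, and their median was 0.12. Of the 8, 5 were higher in 3 of 3 pairs, 62.5% against 14.3% of all genes tested. Over the alternatives the count by the rule ran from 0, without the replicate block, to 5; 7 or 8 of the 8 were positive in each alternative that tested all 8, and 6 of 6 at 5 FPKM. Where a compared library was left out, the rule asks for 1 direction in the 2 pairs left. ID3 (ENSG00000117318, chromosome 1, 23557918 to 23559794, reverse strand), a relative of ID1, was at 2.31, 2.15 and 3.27 FPKM with NH4Cl and at 2.54, 2.88 and 4.75 FPKM with NH4Cl plus TGF-β, on 63 to 145 reads. It was higher in 3 of 3 pairs and most so in replicate 3, with a difference of 0.28 (SE 0.0851, unadjusted p = 0.00898, adjusted 0.660 in limma). Without NH4Cl it differed by 0.10 and the interaction was not called (unadjusted p = 0.183).

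Of 22 early TGF-β targets 21 were tested, and 5 were higher and 0 lower by the rule (limma with the block). A positive difference was found in 18 of 21, against 6200 of all 12341 genes, and the median was 0.08. Those higher in 3 of 3 pairs, with or without p under 0.05, were 9, or 42.9% against 14.3% of all genes. Without NH4Cl 8 were higher by the rule and 0 lower, with a median of 0.09. Over the alternatives the count with NH4Cl ran from 0, without the replicate block, to 6; 16 to 18 of the 21 were positive in each alternative that tested all 21, and 16 of 16 at 5 FPKM.

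JUNB (ENSG00000171223, chromosome 19, 12791496 to 12793315), an AP-1 transcription factor, was at 101.5, 107 and 131 FPKM with NH4Cl and at 113, 125 and 165 FPKM with NH4Cl plus TGF-β. It was higher in 3 of 3 pairs, by 0.24 (SE 0.0924, unadjusted p = 0.0287 in limma) on the log2 scale, and 14.2% of its exon bases lie opposite HOOK2; the strand of counting is not stated. RHOB (ENSG00000143878, chromosome 2, 20447074 to 20449445), a small GTPase of the cytoskeleton and endosomes, was at 70.1, 79.7 and 100.3 FPKM and at 88.4, 87.7 and 117 FPKM. Its groups overlap through replicate 3 with NH4Cl, and its difference was 0.23 (SE 0.0697, unadjusted p = 0.00845 in limma).

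KLF10, a zinc finger repressor known as a TGF-β inducible early gene, was at 15.8, 16.2 and 19.3 FPKM with NH4Cl and 18.1, 19.4 and 19.5 FPKM with NH4Cl plus TGF-β. The pair of replicate 3 hardly differed, and the mean difference was 0.15 (unadjusted p = 0.0466 in limma), or 0.24 without NH4Cl replicate 3. GADD45B, a stress sensor of the MAP kinase pathway, was at 4.15, 4.04 and 6.25 FPKM and at 4.41, 4.32 and 8.04 FPKM, where replicate 3 had most of the 0.16 difference (unadjusted p = 0.0369 in limma); without NH4Cl plus TGF-β replicate 3 it was 0.0890. Without NH4Cl the differences were 0.32 for JUNB, 0.26 for RHOB, 0.18 for KLF10 and 0.20 for GADD45B. None of these genes passed the adjustment in either comparison.

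Other early targets did not meet the rule. The matrix genes CTGF and CYR61 had negative differences, −0.21 and −0.11, with intervals that span 0. CTGF was lower in each pair, and CYR61 in the pair of replicate 1 alone (−0.40).

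Taking the early and BMP lists together, 22 of 28 genes tested were positive in both comparisons, 78.6%, against 26.6% (3281) of all genes, and 0 were negative in both. Both lists were chosen with earlier results of these data known, so this contrast is a description and not a test. The medians were 0.09 with NH4Cl and 0.10 without. The interaction had an unadjusted p under 0.05 in 1 of the 28, BAMBI. Over all genes the interaction gave 0 genes past the threshold in limma, 0 of 12341 or 0%, with 537 at an unadjusted p under 0.05, 4.35%, and the smallest adjusted p was 0.459; limma-voom on read counts gave 1, SMN1.

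**Figure D4:**
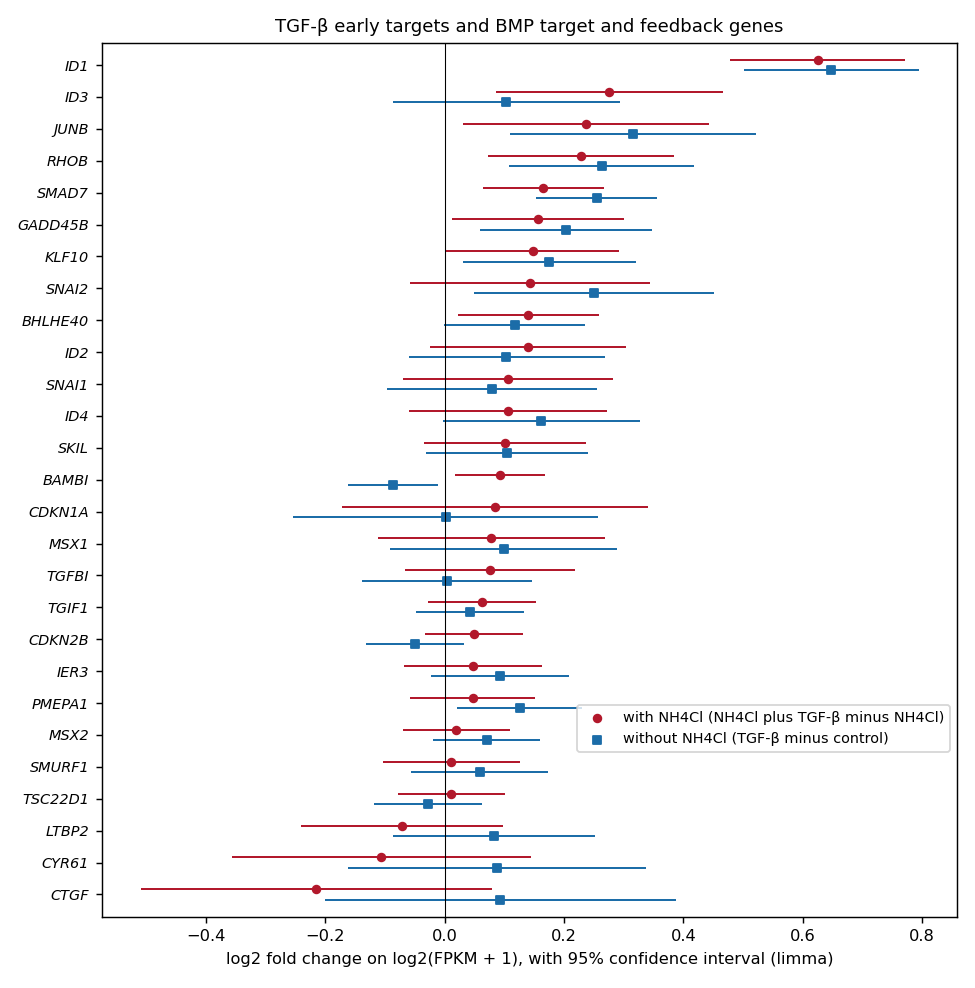
Log2 fold change with its 95% interval from limma (x axis) of early and BMP target genes (y axis), in red with NH4Cl and in blue without. Most points lie to the right of 0 in both colours, ID1 farthest, and BAMBI lies on opposite sides.

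Genes higher by the rule in both comparisons numbered 33, 0.267% of those tested, or 6.42% of the 514 and 15.8% of the 209; genes lower in both numbered 13, 0.105%, or 4.28% of the 304 and 7.22% of the 180. Opposite calls were 9 genes higher with NH4Cl and lower without, and 5 the other way. The early and BMP lists hold 6 of the 33: ID1, SMAD7, JUNB, RHOB, KLF10 and GADD45B. The comparisons share replicate numbers and each gene's fitted spread but no libraries.

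Some of the 33 outside the lists, chosen here after their values were seen, encode known signalling proteins. SPHK1, the kinase that makes sphingosine 1-phosphate, was at 2.21, 2.70 and 3.32 FPKM with NH4Cl and at 3.54, 3.20 and 4.23 FPKM with NH4Cl plus TGF-β, 0.32 (adjusted p = 0.660 in limma). NUAK2, a kinase related to AMPK, was at 3.31, 3.20 and 3.62 FPKM and at 3.87, 3.54 and 5.46 FPKM, 0.26, or 0.14 without NH4Cl plus TGF-β replicate 3. PDGFB, a growth factor for mesenchymal cells, was at 5.58, 5.16 and 8.44 FPKM and at 5.93, 6.23 and 10.4 FPKM, 0.19. All were higher in 3 of 3 pairs and their groups overlap. Of the 13 lower in both, the transcription factor SOX4 was at 36.4, 37.7 and 48.6 FPKM and at 34.1, 34.9 and 45.6 FPKM, −0.10.

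The genes most like ID1 over the 12 libraries, after replicate means were removed, were PIP5K1C (r = 0.956) and SMAD7 (r = 0.925), followed by ZNF668 (0.917), GSDMD (0.911) and BX470102.2 (0.893). The points share the 12 libraries and their 4 treatments, and r is a description. PIP5K1C, a lipid kinase, was at 4.87, 4.96 and 4.69 FPKM with NH4Cl and at 5.11, 5.21 and 5.12 FPKM with NH4Cl plus TGF-β, and its groups do not overlap; it did not meet the rule (0.07, unadjusted p = 0.0928 in limma). ZNF668 shares 36.5% of its exon bases with an antisense gene, so its reads may belong to either.

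**Figure D5:**
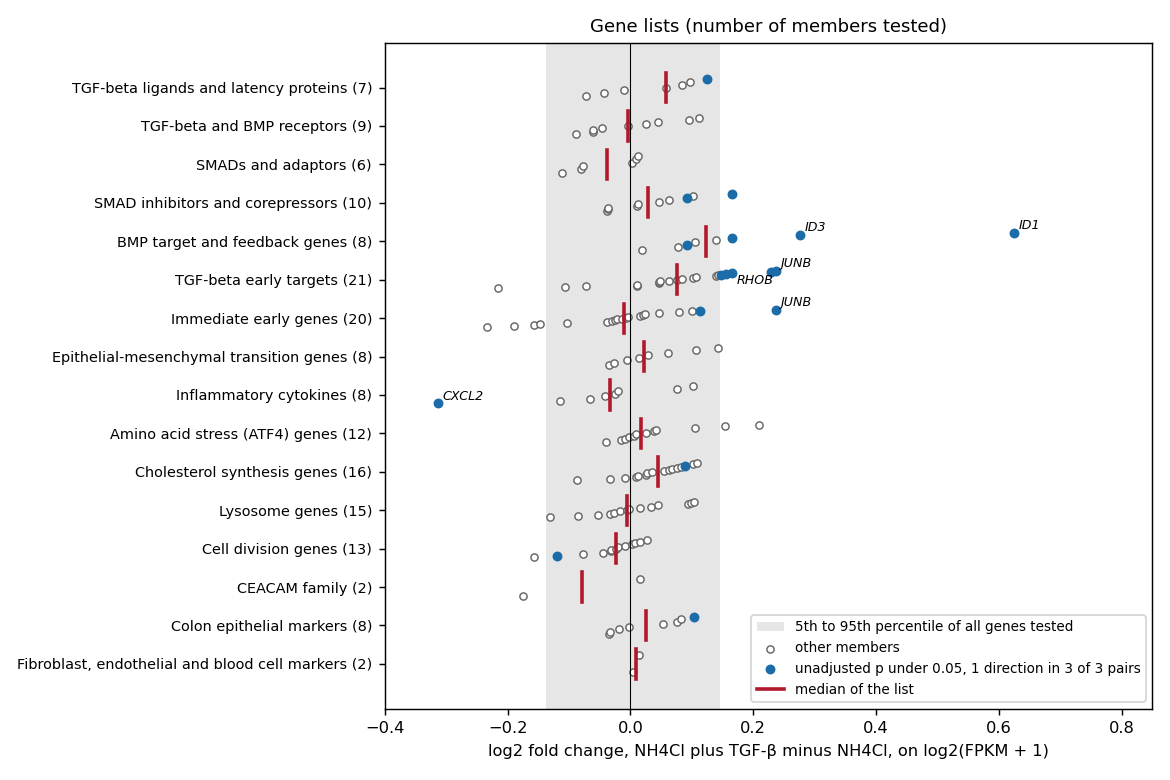
Log2 fold change of NH4Cl plus TGF-β over NH4Cl (x axis) for members of the 16 lists (y axis); blue points meet the unadjusted rule, red bars are list medians and the grey band spans −0.14 to 0.15, the 5th to 95th percentile of all genes tested. Of the points labelled by name, ID1, ID3, JUNB and RHOB lie to the right of the band, and CXCL2 to its left. Unlabelled members also lie outside it, with DDIT4 and SMAD7 among those to the right and EGR1 and CTGF among those to the left.

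Immediate early genes, the first wave after many stimuli, were all tested (20), with 2 higher, 0 lower by the rule (limma with the block) and a median of −0.01. JUNB was one and JUND, another AP-1 member, was the other, at 125, 127 and 155 FPKM with NH4Cl and at 129, 130 and 185 FPKM with NH4Cl plus TGF-β (0.11, unadjusted p = 0.0486 in limma); without NH4Cl plus TGF-β replicate 3 the difference was 0.0487. EGR1, a growth factor induced zinc finger protein, was lower in 3 of 3 pairs, at 116, 122 and 125 FPKM and at 85.8, 102 and 124 FPKM. The EGR1 difference sat in replicates 1 and 2, and its interval, −0.57 to 0.10, includes 0; without NH4Cl plus TGF-β replicate 1 the difference of −0.23 was −0.0413. MYC, the growth regulator that TGF-β lowers in many epithelia, was at 252, 245 and 341 FPKM and at 244, 229 and 354 FPKM, with an interval of −0.12 to 0.06.

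Of 14 epithelial-mesenchymal transition genes 8 were tested and 0 met the rule, with a median of 0.02; CDH2 and TWIST1 are not in the table. SNAI1, a repressor of E-cadherin, was at 12.6, 11.3 and 16.3 FPKM with NH4Cl and at 12.2, 12.03 and 20.02 FPKM with NH4Cl plus TGF-β (0.11, −0.07 to 0.28), and the difference was 0.0162 without NH4Cl plus TGF-β replicate 3 and 0.21 without replicate 1 of that group. Its relative SNAI2 differed by 0.14 (−0.06 to 0.34) on 42 to 96 reads. Of 9 colon epithelial markers 8 were tested, 1 was higher and 0 lower (limma with the block), with a median of 0.02. That was KRT19, a keratin of simple epithelia, at 422.2, 422.3 and 570.1 FPKM and at 461.5, 445 and 613.5 FPKM, 0.10 with 3 of 3 pairs higher (unadjusted p = 0.00915, adjusted 0.660 in limma). KRT18, its partner in the list, differed by 0.08 (−0.03 to 0.20), or 0.0305 without NH4Cl plus TGF-β replicate 1, and 16.3% of its exon bases lie opposite KRT8.

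Of 13 inflammatory cytokine genes 8 were tested, with 0 higher, 1 lower (limma with the block) and a median of −0.03. CXCL2 (ENSG00000081041, chromosome 4, 74097035 to 74099293), a chemokine that draws neutrophils, was at 8.16, 6.98 and 3.69 FPKM with NH4Cl and at 7.37, 5.67 and 2.20 FPKM with NH4Cl plus TGF-β. It was lower in 3 of 3 pairs, replicate 3 was the lowest in each group and the groups overlap, with a difference of −0.31 (unadjusted p = 0.00798, adjusted 0.660 in limma). Without NH4Cl the difference was 0.10, and the interaction was −0.41 (unadjusted p = 0.0123, adjusted 0.992 in limma). CCL20, another chemokine, differed by −0.11 (−0.32 to 0.09) and was higher after TGF-β in replicate 1.

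Other lists held few calls. Of 13 amino acid stress genes 12 were tested and 0 met the rule, with a median of 0.02; DDIT4, an inhibitor of mTOR, was at 9.95, 8.60 and 37.5 FPKM and at 12.1, 9.41 and 44.8 FPKM (0.21, −0.0030 to 0.42), high in replicate 3 and with 41.2% of its exon bases opposite another gene, and CHAC1, which degrades glutathione, differed by 0.15 (−0.10 to 0.41), or 0.0523 without NH4Cl replicate 3. Of 16 cholesterol synthesis genes 1 was higher, 0 lower (limma with the block), and the median was 0.04. A positive difference was found in 13 of the 16, against 6200 of all 12341 genes. Without NH4Cl 5 of the 16 were positive, with a median of −0.0047. LSS, lanosterol synthase, was at 56.8, 56.7 and 51.1 FPKM and at 56.9, 63.3 and 55.2 FPKM. Its difference was 0.09 (unadjusted p = 0.0275 in limma), or 0.0596 without NH4Cl plus TGF-β replicate 2. INSIG1, which restrains the pathway, differed by 0.11 (−0.0020 to 0.22) and the synthesis enzyme CYP51A1, which shares 83.2% of its exon bases with other genes, by 0.10 (−0.06 to 0.27), or 0.0219 without NH4Cl plus TGF-β replicate 3.

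The 15 lysosome genes had a median of −0.0054. MCOLN1, a lysosomal calcium channel, differed by −0.13 (−0.26 to 0.0021). Of 13 cell division genes 0 were higher and 1 was lower (limma with the block), with a median of −0.02: TTK, a kinase of the spindle checkpoint, at 9.04, 9.21 and 10.7 FPKM and at 8.88, 8.04 and 9.49 FPKM, −0.12 (−0.0773 if NH4Cl replicate 3 is left out), and −0.13 in cells without NH4Cl. MKI67, a proliferation marker, differed by −0.16 (−0.32 to 0.0073), lower in replicates 1 and 2 and level in replicate 3; with 1 library left out the difference was −0.25 (without NH4Cl plus TGF-β replicate 3) to −0.0565 (without replicate 1 of that group).

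Of 12 CEACAM genes, cell adhesion molecules of the carcinoembryonic antigen family, 2 were tested and 0 met the rule. CEACAM1 was at 3.18, 3.11 and 3.23 FPKM with NH4Cl and at 3.26, 3.03 and 3.38 FPKM with NH4Cl plus TGF-β, with an interval of −0.11 to 0.14. CEACAM21 differed by −0.17 (−0.43 to 0.08). The other members were below the filter or, as CEACAM3, CEACAM7, CEACAM8 and CEACAM18, not in the table.

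The largest differences among genes with p under 0.01 and 1 direction were in genes of few reads and small or copied genes. Of the 10 largest positive differences, ID1 among them, TMEM81 (ENSG00000174529, chromosome 1, 205083129 to 205084460), a membrane protein gene, was at 1.51, 1.103 and 1.25 FPKM with NH4Cl and at 2.30, 2.06 and 2.21 FPKM with NH4Cl plus TGF-β on 24 to 50 reads. Its groups do not overlap, and the difference of 0.48 (SE 0.0872, unadjusted p = 0.000255, adjusted 0.526 in limma) did not pass the adjustment. GTF2IP1, a pseudogene whose reads may belong to its parent gene, was at 3.53, 3.99 and 3.53 FPKM and at 4.71, 7.62 and 5.002 FPKM, 0.51 with adjusted p = 0.660; limma-voom on read counts called it, with adjusted p = 0.0129 and 0.64, against 0.0129 to 1.00 over its alternatives.

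The remaining positive differences were in the long noncoding genes AL596094.1 (1, 0 and 4 reads with NH4Cl, 9, 11 and 5 with NH4Cl plus TGF-β) and AC093484.4 (6, 2 and 5 reads, then 12, 8 and 15), the pseudogenes AL391358.1 (4, 1 and 5 reads, then 11, 5 and 10), HMGN1P36 and PTMAP5, the antisense gene DNAJC9-AS1, and AL592183.1 on an unplaced contig. The 10 largest negative differences were in the mitochondrial tRNA gene MT-TI (8, 5 and 9 reads, then 3, 1 and 6), the microRNA gene MIR641 (5, 6 and 8 reads, then 2, 4 and 1), the small nucleolar RNA genes SNORA5A and SNORD12B, AC132872.3, AC024075.1, IGLV5-52, SEMA3B-AS1, PIGCP1 and AC009237.15. Reads of such genes are few, or may come from neighbours and copies where they overlap, which was not tested. Opposite another gene lie 17.8% of the exon bases of AC132872.3 and 37.3% of those of AL596094.1. None passed the adjustment.

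By size of the interaction, among genes with p under 0.01 in it, the 5 largest were AC113174.1 (−1.95), MIR641 (−1.69), HMGN2P3 (−1.58), SMN1 (1.45) and SNORA11F (−1.40), all short genes or copies. SMN1, which is needed to assemble splicing particles, was at 13.8, 6.77 and 17.3 FPKM in control cells and at 3.73, 3.55 and 2.95 FPKM with TGF-β alone. With NH4Cl it was at 3.20, 3.34 and 4.02 FPKM, and with NH4Cl plus TGF-β at 3.15, 2.79 and 3.78 FPKM, so the high values are those of the control group. SMN1 has a near-identical copy, SMN2, and its reads may belong to either.

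Differences of uncalled genes above also leaned on single libraries. Leaving out NH4Cl plus TGF-β replicate 3 or replicate 1 of that group gave 0.0506 and 0.15 for SKIL, 0.0450 and 0.16 for ACVR1, and 0.0770 and 0.0275 for TGFBR2. Leaving out NH4Cl replicate 3 or NH4Cl replicate 2 gave 0.13 and 0.32 for DDIT4. SNAI2 was at 0.0693 without NH4Cl replicate 1 and at 0.25 without NH4Cl replicate 3. None of these genes changed direction when 1 library was left out. INSIG1 was at 0.0558 without NH4Cl plus TGF-β replicate 3 and at 0.17 without NH4Cl replicate 2, and TGFBR3 at 0.0706 without NH4Cl replicate 1. Among the negative differences, ZFYVE9 was at −0.17 without NH4Cl replicate 2 and at −0.0627 without NH4Cl plus TGF-β replicate 1, and TGFBR1 at −0.0156 without that last library. Without NH4Cl plus TGF-β replicate 2, MCOLN1 was at −0.0789, SMAD5 at −0.0422, CEACAM21 at −0.31 and MYC at −0.0045. These genes, too, kept their direction. Of genes with few reads, DNAJC9-AS1 was at 0.25, SNORD12B at −0.49 and SNORA11F at −0.49 without NH4Cl replicate 1, and MIR641 at −0.67 without NH4Cl plus TGF-β replicate 3.

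Over all genes the differences were small. The median size of the log2 fold change was 0.0494 with NH4Cl and 0.0389 without; 77 genes differed by at least 0.5, 12 of them with a mean of at least 5 FPKM, and 10 by at least 1, 9 of them with a mean under 5 FPKM. Across genes, which are not independent, the differences of the 3 pairs hardly ran together: r was 0.057 for replicates 1 and 2, −0.021 for 1 and 3 and −0.024 for 2 and 3 (n = 12341 genes). The differences with and without NH4Cl had r = 0.018 and a Spearman value of 0.041 across the same genes. The genes higher by the rule had a median exon length of 2780 bases and the lower ones 4822, against 4504 over all genes, and their median FPKM was 12.9 and 6.39 against 6.63. Of the 879 genes with unadjusted p under 0.05, 62.0% were higher, and of 900 by limma-voom on read counts 47.9%, so the balance of directions depended on the method.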

How the data were processed

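RNA sequencing of 12 libraries, 3 in each of 4 groups, was taken as deposited FPKM values per gene, which the authors computed. Per the labels, the authors used Trimmomatic 0.36, STAR 2.5.2b, featureCounts, Subread 1.5.2 and DESeq2 on GRCh38, with roles not stated, while the methods of the study name HTSeq for counting. FPKM times the GENCODE 29 exon length gave whole reads for 100% of values within 0.1 read after scaling. Genes with a mean of at least 1 FPKM were fitted as log2 of FPKM plus 1 in limma 3.58.1 (R 4.3.3), with moderated statistics and an intensity trend, 4 group means and replicate number as a block over all 12 libraries, and Benjamini-Hochberg adjustment over 12341 genes; the fit was tested on simulated data. The block follows the replicate numbers of the labels. As a check, deviations from group means were correlated across genes: libraries numbered 1 correlated with each other at 0.349 to 0.431, those numbered 2 at 0.446 to 0.533, and those numbered 3 at 0.702 to 0.774. Replicate 1 with replicate 2 gave 0.341 to 0.486, and replicate 3 with either −0.655 to −0.464. The check thus sets replicate 3 apart and does not tell numbers 1 and 2 apart: NH4Cl replicate 1 correlated at 0.349 with its own pair and at 0.482 with NH4Cl plus TGF-β replicate 2. Tables and figures used Python 3.11.15, numpy 2.4.6, pandas 2.3.3 and matplotlib 3.10.9.

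Named genes were those past the adjusted threshold; the 10 largest positive and 10 largest negative differences with p under 0.01 and 1 direction in 3 of 3 pairs; in each of 16 lists the members that met the unadjusted rule and the 2 largest differences; 10 pathway genes; the 5 largest interactions with p under 0.01; and the genes most like the leading gene. The members and lists were chosen with earlier results of these data known. Alternatives were another pseudocount (0.1), no filter, a filter at 5 FPKM, TPM, median centring, no replicate block, the 6 libraries alone, no intensity trend, each library left out, replicates 1 and 2 only, and limma-voom on recovered reads.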

Additional observations from a re-analysis of the deposited data

Results flagged for a closer look

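In 4 named genes the 3 pairs with NH4Cl all differed in 1 direction and the 3 pairs without NH4Cl all in the other. The difference between the responses was tested as the interaction in limma, and in each of the 4 the adjusted p was 0.992. BAMBI, the decoy receptor, had an interaction of 0.18 (0.179) on the log2 scale, with an unadjusted p of 0.00375. CXCL2, the chemokine, had −0.41 (unadjusted p = 0.0123). AC009237.15, a long noncoding gene of 9 to 20 reads in the 6 libraries compared, had −0.62 (unadjusted p = 0.000596), and SNORA11F, a small nucleolar RNA gene of 1 to 5 reads there, had −1.40 (unadjusted p = 0.00469). What sets these genes apart was not tested.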

How the results depend on the processing

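Of 69 named genes 59 kept the sign of their difference in each of the 22 alternatives that tested them; a filter at 5 FPKM leaves some out. With NH4Cl, 1 gene passed the threshold; 0 did with no filter, with TPM, without the replicate block (the pairing), with the 6 libraries alone, without the intensity trend or with replicates 1 and 2 only, 2 did by limma-voom (ID1 and GTF2IP1), and 0 to 1 without 1 library. These counts of 0 had limma with 165 genes (no block) to 1491 (no filter) at an unadjusted p under 0.05. Without NH4Cl the count of 1 became 0 with no filter, no block, 6 libraries or no trend, 2 at 5 FPKM or by limma-voom (ID1 and SMN1), and 0 to 2 without 1 library; the gene counted was SMN1 without control replicate 2 and MIR4740 with replicates 1 and 2 only. The interaction went from 0 genes to 1 with replicates 1 and 2 only (MIR4740) and by limma-voom (SMN1), and to 0 to 1 without 1 library: SMN1 without control replicate 2, and RPS23P8 without TGF-β replicate 3. The fit of 6 libraries gives no interaction. The 818 genes by the unadjusted rule became 1353 with no filter, 534 at 5 FPKM and 157 without the block, and 633 to 1101 without 1 library, where a compared library left out leaves 2 pairs and so a looser rule. The cause of these changes was not tested. Leaving out 1 library turned the sign of SMAD3 (−0.0262 to 0.0325), CEACAM1 (−0.0161 to 0.0471), COL1A1 (−0.0924 to 0.0820), VWF (−0.0539 to 0.0651), TGFB1 (−0.0257 to 0.15), LTBP4 (−0.0184 to 0.16), SPTBN1 (−0.13 to 0.0049), CCL20 (−0.20 to 0.0205), HMGN2P3 (−0.73 to 0.0349) and SMN1 (−0.19 to 0.0160). Replicates 1 and 2 alone gave CCL20 0.0085, CEACAM1 −0.00084, COL1A1 −0.11, VWF −0.0729, TGFB1 −0.0298 and SMAD3 −0.0396; a pseudocount of 0.1 gave VWF −0.0048, and limma-voom gave SMAD3 −0.0013. Few reads limit genes near 1 FPKM; TMEM81, for example, rests on 24 to 50 reads.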
